A study of Mus musculus with 6 samples.

Results

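The 9 genes described here serve the antigen receptor of B cells or the secretory programme of plasma cells: Cd79a, Cd79b, Ms4a1, Cd22, Blk, Pax5, Mzb1, Xbp1 and Blnk. They were chosen by name, and all 9 were found among the 24318 rows of a table of gene expression in whole mouse liver. The study compared 3 control livers with 3 livers in which the kinase TAK1, the product of Map3k7, was to be deleted from endothelial cells. The mice of both groups were C57BL/6 and carried VEcadCreERT2, a Cre recombinase that tamoxifen activates and that the promoter of VE-cadherin, an endothelial adhesion gene, drives, together with TAK1flox/flox, both alleles of the kinase gene flanked by loxP sites. The knockout group had been treated with tamoxifen and the control group had not, so the deletion and the drug cannot be told apart. Age, the time after tamoxifen and whether a library came from a single animal are not given in the sources used here, and the p-values therefore reflect only how far these 6 libraries differ.

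The B cell receptor is a membrane immunoglobulin held by the paired signalling chains CD79A and CD79B. When antigen binds, SRC-family kinases such as BLK and LYN phosphorylate these chains, SYK is recruited, and the adaptor BLNK links SYK to BTK and phospholipase C. CD22 dampens the signal, and PAX5 keeps the B cell programme on until a cell becomes a plasma cell, when PAX5 is lost and XBP1 expands the endoplasmic reticulum for antibody secretion. A healthy adult liver holds few B cells, whereas hepatocytes, which also secrete much protein, express Xbp1 themselves.

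Values are FPKM, fragments per kilobase of transcript and per unit of library size, with the scaling between libraries not given in the sources used here. Log2 fold changes are knockout minus control on the log2(FPKM + 0.5) scale, which understates the change of low genes, and are given with the standard error (3 libraries a group). A gene was called at a limma adjusted p under 0.05 (Benjamini-Hochberg over the 11842 genes whose mean reached 0.5 FPKM). Map3k7 measured 8.50, 9.02 and 9.14 FPKM in the controls and 9.28, 9.31 and 7.35 FPKM in the knockouts (log2 fold change -0.04 ± 0.16, limma adjusted p = 0.868). Cells other than endothelium also express it, so whole-liver RNA does not check the deletion. The 12 hepatocyte markers had summed levels of 35400 to 41500 FPKM in the controls and 45900 to 53900 FPKM in the knockouts. Their median log2 fold change was -0.327, so the higher sum does not describe the list as a whole. Of these 12 genes 2 rose and 3 fell, against 14.1% higher and 13% lower of all tested genes. In each fit without one of the libraries 1 rose.

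Of the 9 genes, 6 rose in knockout livers and 0 fell, against 14.1% of all tested genes called higher and 13% called lower. The receptor chains Cd79a and Cd79b, the adaptor Blnk, the inhibitory co-receptor Cd22, the surface antigen Ms4a1 and the transcription factor Pax5 rose. The plasma cell genes Mzb1 and Xbp1 did not pass the limma test. At an unadjusted limma p under 0.05 the counts were also 6 and 0, against 2378 higher and 2307 lower of all 11842 tested genes. Blk, with a mean below the 0.5 FPKM minimum, was not tested. Blnk, Ms4a1 and Pax5 had control means below that minimum and were tested only because of their knockout values. In the fit with no filter they were called as well, among 7 of the 9 genes. Values of the groups did not overlap for these 6 genes and for Blk, against 22.4% of tested genes that were higher, and 21.1% lower, without overlap. In whole liver, more B cells and more RNA per B cell cannot be told apart.

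**Figure D1:**
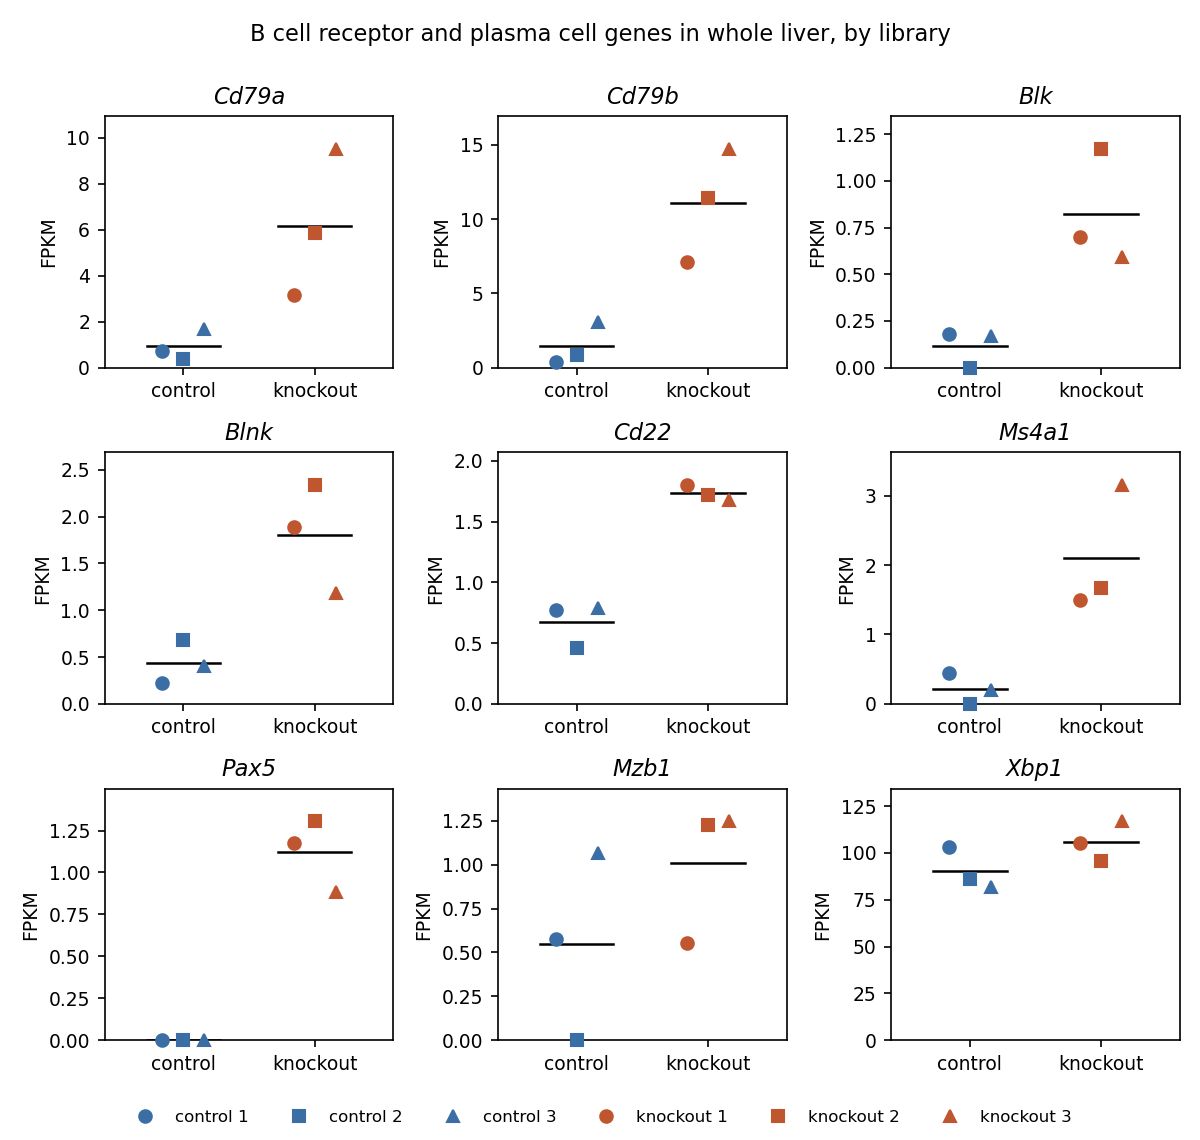
FPKM of the 9 genes in each library, on linear axes that start at 0, with controls in blue, knockouts in orange, a symbol for each replicate number and a black line at the group mean. Every knockout library lies above every control library for 7 genes, whereas Mzb1 and Xbp1 overlap.

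Cd79a encodes one of the 2 chains that carry the receptor's signal into the cell. It measured 0.729, 0.379 and 1.69 FPKM in the controls and 3.15, 5.85 and 9.50 FPKM in the knockouts. Control 3 was the highest control, knockout 1 the lowest knockout, and the groups did not overlap. The mean was 0.931 ± 0.677 FPKM (SD, n = 3) in control and 6.17 ± 3.18 FPKM (SD, n = 3) in knockout livers, and the control mean was 0.554 FPKM without control 3. This gave a log2 fold change of 2.21 ± 0.42 (limma adjusted p = 0.00495).

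Cd79b encodes the partner chain. It measured 0.410, 0.853 and 3.04 FPKM in the controls and 7.11, 11.4 and 14.7 FPKM in the knockouts. As for Cd79a, control 3 was the highest control, knockout 3 the highest knockout, and the groups did not overlap. The mean was 1.43 ± 1.41 FPKM (SD, n = 3) in control, 0.632 FPKM without control 3, and 11.1 ± 3.81 FPKM (SD, n = 3) in knockout livers. The log2 fold change of 2.77 ± 0.46 (limma adjusted p = 0.0026) was the largest of the 8 tested genes. Both chains were called in all 17 fits, with log2 fold changes of 1.85 to 2.68 for Cd79a and 2.35 to 3.33 for Cd79b.

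Because the receptor genes rose together, the 250 bases before their annotated starts are shown for 3 of the 5 genes whose RefSeq window was used (build GRCm38.p6). Cd79a stands for the receptor chains, Blnk for the adaptor and Xbp1 for a gene that was not called. The files' own build is mm9, and positions here are from GRCm38.p6 alone. Sequences run 5′ to 3′ on the gene's strand, and capitals mark a motif from a list of 6 searched on both strands. The windows are chr7:24897247-24897496 (+) for Cd79a, chr19:40994222-40994471 (-) for Blnk and chr11:5520391-5520640 (+) for Xbp1.
Cd79a: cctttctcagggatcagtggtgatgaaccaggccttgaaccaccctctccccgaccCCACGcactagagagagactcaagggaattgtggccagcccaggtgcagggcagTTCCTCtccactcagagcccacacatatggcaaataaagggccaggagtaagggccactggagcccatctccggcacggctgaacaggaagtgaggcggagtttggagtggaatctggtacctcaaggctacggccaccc
Blnk: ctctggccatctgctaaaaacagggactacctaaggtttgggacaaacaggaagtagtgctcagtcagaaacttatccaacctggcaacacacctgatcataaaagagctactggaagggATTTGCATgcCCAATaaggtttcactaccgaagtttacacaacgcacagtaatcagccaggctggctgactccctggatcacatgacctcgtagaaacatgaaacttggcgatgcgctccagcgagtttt
Xbp1: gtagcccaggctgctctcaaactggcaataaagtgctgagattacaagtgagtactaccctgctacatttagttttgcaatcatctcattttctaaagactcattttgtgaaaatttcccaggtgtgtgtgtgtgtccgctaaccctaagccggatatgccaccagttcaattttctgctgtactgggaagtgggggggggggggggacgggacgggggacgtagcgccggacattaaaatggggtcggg

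The motifs were the octamer ATGCAAAT bound by OCT factors and their B cell coactivator, the palindrome CCCNNGGG of early B cell factor sites, GAGGAA of PU.1 and related factors, CCAAT of NF-Y, and ACGTG and CCACG, which form parts of elements of the unfolded protein response. Of 32851 windows of this length, 1.6% held the octamer, 11.8% the palindrome, 23.3% GAGGAA, 33.8% CCAAT, 16.6% ACGTG and 28.3% CCACG. The Blnk window held the octamer on its minus strand from base -130 and CCAAT from base -120 relative to the start. The Cd79a window held GAGGAA on the minus strand from base -140 and CCACG from base -194. The Cd22 window held CCCNNGGG from base -48, the Pax5 window ACGTG from base -142, and the Xbp1 window contained no match to these letters. A match is a description of the letters and does not show binding.

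Among the signalling partners, Blk encodes a SRC-family kinase found mainly in B cells. It measured 0.183, 0 and 0.169 FPKM in the controls and 0.700, 1.17 and 0.595 FPKM in the knockouts. The groups did not overlap, and control 2 was listed at 0. An exact two-sided permutation test gave p = 0.1, the smallest that 3 against 3 libraries allow. On the log2 scale the difference was 1.09, and 2.18 or 0.70 with a pseudocount of 0.1 or 1 FPKM in place of 0.5 FPKM. In the fit with no filter on low values, Blk passed the threshold (limma adjusted p = 0.0191).

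Blnk, the adaptor downstream of SYK, is also expressed by macrophages. It measured 0.219, 0.681 and 0.403 FPKM in the controls and 1.89, 2.33 and 1.19 FPKM in the knockouts. Knockout 3, the highest knockout for both receptor chains, was here the lowest. Blnk rose by a log2 fold change of 1.30 ± 0.32 (limma adjusted p = 0.0157). The Blnk call was lost without control 1 (adjusted p = 0.0574), knockout 1 (0.0504) or knockout 2 (0.0541), within a range of adjusted p over all fits of 0.0119 to 0.0574 by limma.

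Cd22 encodes a sialic acid-binding lectin that recruits phosphatases to the receptor. It measured 0.775, 0.459 and 0.790 FPKM in the controls and 1.80, 1.72 and 1.68 FPKM in the knockouts. The 3 knockout values lay close together, and the group means were 0.674 ± 0.187 and 1.73 ± 0.0610 FPKM (SD, n = 3). Its log2 fold change of 0.94 ± 0.26 (limma adjusted p = 0.0252) was the smallest of the 6 that passed. The Cd22 call was lost without control 1, control 2, knockout 1, knockout 2 or knockout 3 (limma adjusted p of 0.0536, 0.0861, 0.0667, 0.0575 and 0.0568), and held without control 3.

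Ms4a1 encodes CD20, a surface protein of B cells that plasma cells lose. It measured 0.446, 0 and 0.206 FPKM in the controls and 1.498, 1.67 and 3.15 FPKM in the knockouts. Knockout 3 stood highest, as for Cd79a and Cd79b. Ms4a1 rose by a log2 fold change of 1.85 ± 0.36 (limma adjusted p = 0.00515), and it was called in all 17 fits.

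Pax5, the B lineage transcription factor, was listed at 0 FPKM in all 3 controls. It measured 1.17, 1.30 and 0.883 FPKM in the knockouts (limma adjusted p = 0.0038). A fold against a group listed at 0 depends on the pseudocount and is not given. An exact 0 in this table can be a failed estimate, since Eno1, a glycolytic gene of every cell, was also listed at 0 in both groups.

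Mzb1 encodes an endoplasmic reticulum chaperone of antibody assembly, made by marginal zone B cells and plasma cells. It measured 0.574, 0 and 1.07 FPKM in the controls and 0.554, 1.23 and 1.25 FPKM in the knockouts. The groups overlapped, with knockout 1 below controls 1 and 3. The log2 fold change was 0.64 ± 0.45, with a 95% interval of -0.36 to 1.64 (limma adjusted p = 0.327). This interval holds both no change and a rise as large as that of Blnk, so a rise of that size was not excluded here.

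Xbp1, the transcription factor of the secretory programme, measured 103, 85.9 and 81.6 FPKM in the controls and 106, 95.7 and 117 FPKM in the knockouts. Control 1 lay above knockout 2, so the groups overlapped. The log2 fold change was 0.23 ± 0.14, with a 95% interval of -0.09 to 0.56 (limma adjusted p = 0.270). Its mean over all libraries was 98.1 FPKM, above 94.98% of tested genes, whereas the mean of Cd79b, next among the 9, was 6.25 FPKM, above 51.5%. Gene values do not show the splicing that activates its product.

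**Figure D2:**
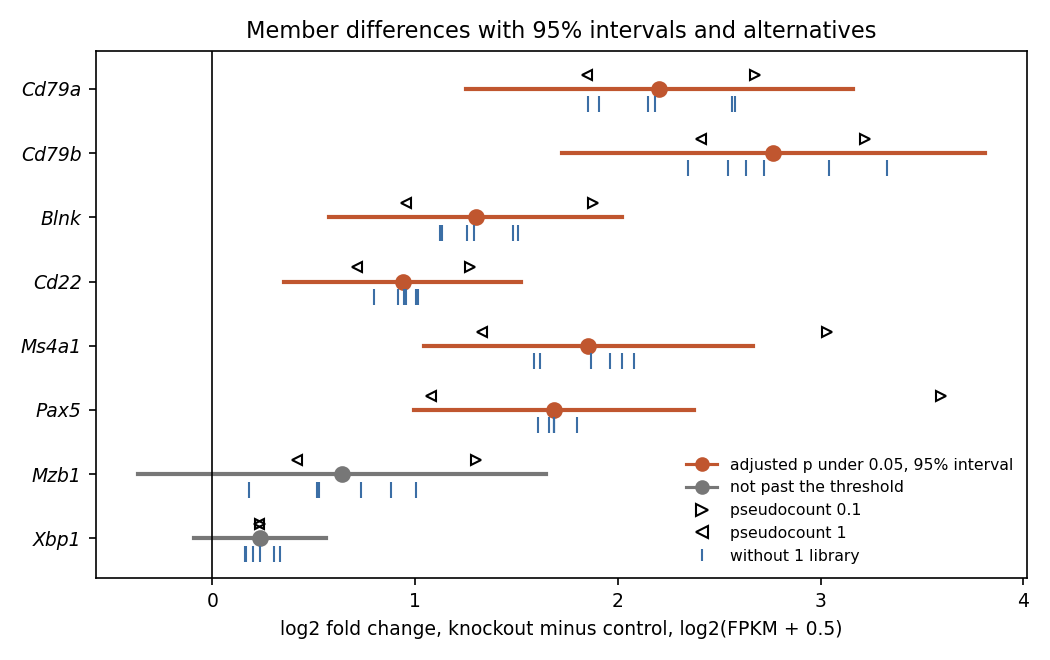
Log2 fold changes of the 8 tested genes (dots) with 95% intervals (bars), values with pseudocounts of 0.1 and 1 FPKM (open triangles) and values without each library in turn (blue ticks). The intervals of Mzb1 and Xbp1 cross 0, and the position of Pax5, listed at 0 in controls, moves most with the pseudocount.

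The low values carry a record of how little sequence they rest on. Judged by the smallest increments of low genes, the other libraries had 0.921 to 1.08 times the depth of control 1, provided that the scaling was made library by library. Absolute depth is unknown. After this rescaling, the 6 values of 7 of the 9 genes were whole multiples, within 0.1, of a unit shared by the libraries. Cd79a came to 2, 1 and 5 steps in control and 9, 15 and 24 steps in knockout libraries. Cd79b came to 1, 2 and 8 steps against 18, 26 and 33 steps. If a step is a single fragment, the control values of these genes rest on a handful of fragments.

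The other genes rest on fewer steps still. Ms4a1 had 2, 0 and 1 steps against 7, 7 and 13 steps, and Blnk had 1, 3 and 2 steps against 9, 10 and 5 steps. Blk had 1, 0 and 1 steps against 4, 6 and 3 steps, and Pax5 had 0 against 3, 3 and 2 steps. Mzb1 had 1, 0 and 2 steps against 1, 2 and 2 steps. Cd22 and Xbp1 shared no unit with a lowest value of 12 steps or fewer.

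**Figure D3:**
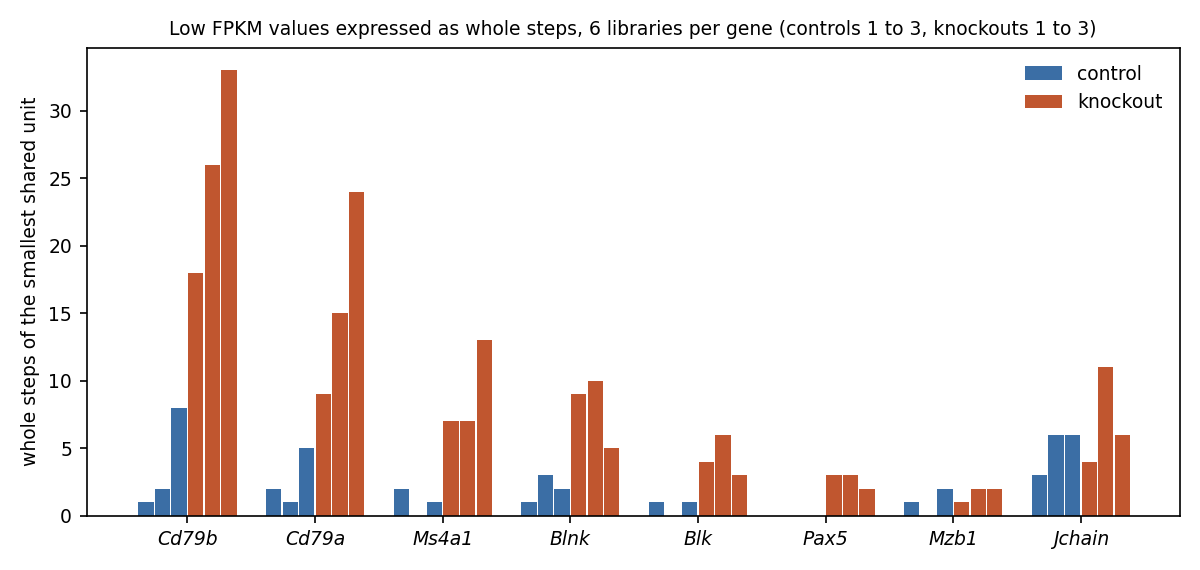
Whole steps of the smallest unit shared by the 6 libraries, for 7 of the 9 genes and for Jchain, with control libraries 1 to 3 in blue and knockout libraries 1 to 3 in orange. Cd79b runs from 1 to 8 steps in controls and from 18 to 33 in knockouts, whereas Mzb1 stays between 0 and 2.

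Most called genes around the receptor were higher in knockout livers, beside 14.1% higher and 13% lower of all tested genes. Of 26 tested genes of B cell receptor signalling, 15 rose and 2 fell, with a median log2 fold change of 1.0 against -0.0007 over all tested genes. The receptor-proximal kinase Syk went from 2.47, 1.06 and 3.85 FPKM to 10.2, 9.57 and 10.4 FPKM (log2 fold change 1.95 ± 0.33). The exchange factor Vav1 had a log2 fold change of 1.78 ± 0.23 and the inositol phosphatase Inpp5d, which restrains the signal, one of 1.75 ± 0.25. The 2 that fell, named after their values were seen, were the inhibitory Fc receptor Fcgr2b (log2 fold change -1.35 ± 0.23), which sinusoidal endothelium also expresses, and the exchange factor Rasgrp3 (-0.90 ± 0.28). The Rasgrp3 call (limma adjusted p = 0.043) was lost without control 1, control 3, knockout 2 or knockout 3, at adjusted p of 0.0965 to 0.118. With all 6 libraries it was also lost under no filter (0.0625), library weights (0.0596) or the replicate block (0.0657). Syk, Vav1, Inpp5d and many others of this list are also myeloid genes.

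Among 12 tested transcription factors of the B lineage, 8 rose and 0 fell, with a median log2 fold change of 1.17. The counts at an unadjusted limma p under 0.05 were 10 and 0, against 2378 and 2307 of all 11842 tested genes. Of these 12, 5 had control means below 0.5 FPKM, among them Pou2af1 and Spib, and passed the minimum through their knockout values. The B cell coactivator Pou2af1 measured 0.703, 0 and 0.324 FPKM in the controls and 3.37, 3.19 and 1.91 FPKM in the knockouts (log2 fold change 2.04 ± 0.37). Spib, a factor of B cells and plasmacytoid dendritic cells, measured 0.161, 0.167 and 0.445 FPKM against 2.93, 1.37 and 3.14 FPKM (1.94 ± 0.34). The shared haematopoietic factors Spi1 and Ikzf1 had log2 fold changes of 1.79 ± 0.27 and 1.67 ± 0.25. Ebf1, which acts with PAX5, was listed at 0 in controls and at 0.0945 to 0.240 FPKM in the knockouts, below the minimum for testing.

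Of 15 tested surface genes of mature B cells, 12 rose and 1, the complement regulator Cd55, named after its value was seen, fell (log2 fold change -1.23 ± 0.24). The IgM receptor gene Fcmr, also named after its value was seen, was among the 12 although its groups overlapped, and its call (limma adjusted p = 0.043) was lost without any one library other than knockout 1. With all 6 libraries the Fcmr call was also lost under no filter (adjusted p = 0.0745), the same median (0.0539), no trend (0.0596) or library weights (0.0629). The median log2 fold change was 1.55, and 8 of the 15 had control means below 0.5 FPKM. Cd24a rose from 0.256, 1.06 and 1.89 FPKM to 14.7, 10.7 and 16.1 FPKM (3.32 ± 0.38), the tetraspanin Cd37 from 1.64, 1.27 and 1.11 FPKM to 8.45, 10.3 and 13.01 FPKM (2.58 ± 0.22), and Cd83 had a log2 fold change of 2.201 ± 0.402. Cd24a is also a gene of neutrophils and erythroid cells. Tnfrsf13c, the receptor for the survival factor BAFF, was listed at 0 in controls and at 0.698, 1.30 and 1.58 FPKM in the knockouts (adjusted p = 0.00516 by limma).

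Precursor B cell genes were mixed, beside 14.1% higher and 13% lower of all tested genes. Of 8 tested, 4 rose and 1, the endothelial and stem cell factor Erg, named after its value was seen, fell (log2 fold change -1.25 ± 0.25). The 4 were Il7r (2.41 ± 0.28), Myb, Lef1 (1.73 ± 0.36) and Cd93 (1.47 ± 0.26), each of which other blood or endothelial cells also express. Of the 8, 6 had control means below 0.5 FPKM, among them Il7r, Myb and Lef1, which were tested only because of their knockout values. The surrogate light chain genes Igll1 and Vpreb2 were listed at 0 in all libraries. Vpreb3 was at 0 in controls and at 0.955, 0 and 6.40 FPKM in the knockouts, so that knockout 3 alone held most of it (adjusted p = 0.122 by limma, and 0.0154 without knockout 2).

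The tested plasma cell genes did not rise as a list. Of 13 tested, 2 rose and 1 fell, against 14.1% higher and 13% lower of all tested genes. The median log2 fold change was -0.12, and without control 1 only 1 was called higher. Several of the 13 were abundant in control livers, such as Creld2 and Sdc1 at means of 121 and 112 FPKM. What hepatocytes contribute to this median was not tested. The genes that rose were Pou2af1, shared with B cells, and the ectoenzyme Cd38 (log2 fold change 0.67 ± 0.16), which other leukocytes also express, and the one that fell was Txndc11 (-0.997 ± 0.149), at 21.6 to 25.0 FPKM in control livers. Jchain, the joining chain of secreted antibody, named after its value was seen, measured 0.654, 1.36 and 1.21 FPKM in the controls and 0.836, 2.56 and 1.42 FPKM in the knockouts (0.37 ± 0.36, adjusted p = 0.483 by limma). Tnfrsf17, the plasma cell receptor BCMA, was listed at 0 throughout. Prdm1, Irf4 and Slamf7, named after their values were seen, were too low for testing, but every knockout lay above every control. Prdm1 measured 0.0835, 0 and 0.308 FPKM in the controls and 0.399, 0.535 and 0.453 FPKM in the knockouts. Irf4 went from 0.0932, 0.0967 and 0.258 FPKM to 0.981, 0.398 and 0.506 FPKM. Slamf7 went from 0.111, 0.459 and 0.102 FPKM to 0.952, 0.58999 and 0.5996 FPKM. Eaf2, also named so and untested, was at 0 except in control 3 (0.286 FPKM). Of row names starting Igh, Igk or Igl, only Ighmbp2, Igll1 and Iglon5 were found. None of these is a heavy or light chain gene of antibody, so those transcripts could not be examined. Whether B cell and plasma cell genes differ in their change was not tested.

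Genes of the XBP1 and endoplasmic reticulum stress response numbered 0 higher and 1 lower of 27 tested by limma, with a median of -0.05. The gene that fell was Herpud1, named after its value was seen (log2 fold change -0.97 ± 0.19). With an unadjusted limma p under 0.05 the counts were 1 and 3, against 2378 and 2307 of all 11842 tested genes. The most abundant, the chaperones Hspa5 and Calr, had log2 fold changes of -0.05 ± 0.24 and 0.23 ± 0.22 and did not pass. Knockout 2 had the lowest mean level of this list, and without it 3 genes were called higher, whereas without knockout 3 there were 3 called lower.

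**Figure D4:**
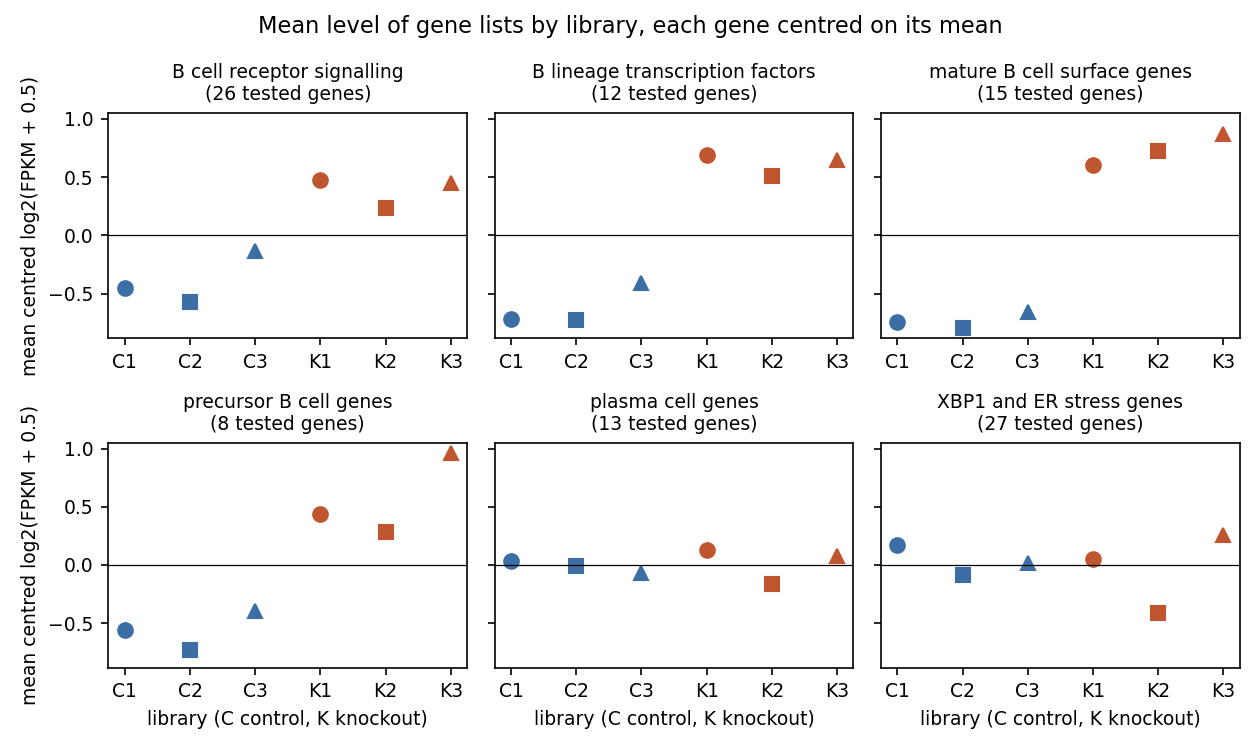
Mean of log2(FPKM + 0.5) over the tested genes of 6 lists in each library, each gene centred on its mean over the 6 libraries. For the signalling, transcription factor, surface and precursor lists every knockout library lies above every control library, whereas for plasma cell and endoplasmic reticulum stress genes the groups overlap.

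Of 5 tested ligands that keep B cells alive or attract them, 0 were called higher and 1 lower by limma. There was 1 in each direction at an unadjusted limma p under 0.05, against 2378 higher and 2307 lower of all 11842 tested genes. Cxcl13, the attractant of B cell follicles, measured 8.08, 1.77 and 18.1 FPKM in the controls and 14.3, 43.2 and 26.3 FPKM in the knockouts, which overlapped (log2 fold change 1.86 ± 0.67, adjusted p = 0.0673 by limma, 0.018 without control 3 and 0.0393 with library weights). Cxcl12, which retains B cell precursors and plasma cells in marrow, fell by 0.47 ± 0.14 on the log2 scale (limma adjusted p = 0.0387), and without any one library other than knockout 3 this call was lost. The Cxcl12 call was also lost with no variance trend (adjusted p = 0.09) and with the replicate block (0.0664). The APRIL gene Tnfsf13, which supports plasma cells, measured 1.12, 0.757 and 1.54 FPKM in the controls and 4.29, 5.76 and 0 FPKM in the knockouts. Knockout 3 was listed at 0 and the other 2 knockouts lay above every control. Tnfsf13 was not called (limma adjusted p = 0.613), and without knockout 3 it was called higher (log2 fold change 1.77, adjusted p = 0.00616). The BAFF gene Tnfsf13b measured 0.552, 0.286 and 0.510 FPKM in the controls and 1.32, 0.589 and 0 FPKM in the knockouts.

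Markers of other blood cells rose beside the B cell genes, and their part in the results above was not tested. For the counts that follow, the shares over all tested genes were 14.1% higher and 13% lower. Of 17 macrophage and monocyte markers, 12 rose and 1 fell, and their summed level was 771 to 1350 FPKM in the controls and 1750 to 2050 FPKM in the knockouts. Control 3, the highest control for Cd79a and Cd79b, was also the highest control for this sum. All 13 tested neutrophil markers rose, from summed levels of 90.6 to 126 FPKM to 1910 to 2000 FPKM. Of 12 tested T cell markers 6 rose and 1, Zap70, named after its value was seen, fell. Trat1 was listed at 0 throughout, and Cd8a and Cd8b1 at 0 in controls alone. Zap70 measured 26.2, 22.4 and 16.6 FPKM in the controls and 12.8, 8.46 and 14.1 FPKM in the knockouts. The summed T cell levels were 20.8 to 34.1 FPKM in the controls, mostly Zap70, and 29.1 to 37.7 FPKM in the knockouts. The overlap of these sums therefore does not describe the other T cell markers. The T cell count called higher was 4 to 7 with a library left out, and the Zap70 call was lost without control 1 (limma adjusted p = 0.085), control 2 (0.075) or knockout 2 (0.0571). Of 7 tested markers of plasmacytoid dendritic cells, which share Blnk and Mzb1 with B cells, 3 rose and 1, Bst2, fell. Their defining lectin Siglech measured 0, 0.196 and 0.523 FPKM in the controls and 0.725, 1.21 and 0.821 FPKM in the knockouts and was not called, and the summed level, mostly Bst2, was 247 to 325 and 181 to 287 FPKM. Ly6d, on that list but also a gene of B cell precursors, went from 1.63, 7.62 and 10.6 FPKM to 40.2, 54.9 and 86.5 FPKM (log2 fold change 3.33 ± 0.54, and 2.61 without control 1). Of 7 tested erythroid precursor markers 3 rose, and 1 or 2 did in the fits without one library, with sums of 18.2 to 23.98 and 34.9 to 46.2 FPKM.

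The genes whose profile over the 6 libraries lay nearest to that of the receptor chains included collagen genes. Likeness was the root mean square difference of centred log2(FPKM + 0.5) profiles from the mean profile of Cd79a and Cd79b. The nearest of all tested genes outside the 9 was the fibrillar collagen gene Col3a1, at 0.192 log2 units, followed by Spon2 (0.226), the collagen cross-linking enzyme gene Lox (0.234), Slamf9 (0.249), Col1a2 (0.277) and Lgals3 (0.283). Col3a1 measured 8.97, 8.90 and 21.2 FPKM in the controls and 58.0, 64.5 and 95.3 FPKM in the knockouts, with control 3 the highest control and knockout 3 the highest knockout, as for both chains. Cd79a and Cd79b themselves each lay at 0.24 log2 units from the same profile. Their distances are equal by construction, since the profile is their mean, and are no independent yardstick. Ms4a1 lay at 0.637, Pax5 at 0.748 and Blnk at 0.935. The distance includes the size of the change, which the pseudocount of 0.5 FPKM understates for low genes such as Ms4a1 and Pax5. It therefore does not rank how closely genes follow the receptor chains. Nearest to Xbp1 were Ost4 (0.0452), a subunit of the oligosaccharyltransferase of the endoplasmic reticulum, Tbcb (0.0530), Afp (0.0537) and Dus2 (0.0557). These profiles have 6 points in 2 groups and are given as a description.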

How the data were processed

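RNA of whole mouse liver was measured in 6 libraries, 3 control and 3 knockout. The labels' protocols name a TruSeq v2 kit and paired-end reads. Trimmomatic 0.33, TopHat2 2.1.0, Cuffdiff 2.2.1, Cuffnorm 2.2.1 and build mm9 are named per the submitters' processing notes, with no annotation. The authors deposited FPKM values, 1 column per library, used as they stand; no counts were given, so no counting interval could be. A few very abundant genes can shift all other FPKM values.

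Groups were compared with limma 3.58.1 in R 4.3.3 (two-sided, variance following mean level) on log2(FPKM + 0.5), for 11842 genes whose mean reached 0.5 FPKM. Alb, listed at 0 in controls alone, was left out as a failed estimate. Of 24318 rows, 8986 were at 0 throughout. The fit was tested on simulated data. The 9 genes, the lists of related genes and cell type markers and the motifs were chosen with earlier results of these data known, and the lists are described by counts, with no set test. The lists cover receptor signalling, transcription factors, surface, precursor and plasma cell genes, endoplasmic reticulum stress, ligands, and markers of T cells, plasmacytoid dendritic cells, macrophages, neutrophils, erythroid precursors and hepatocytes. From each list the rule names up to 4 called genes of largest change, or its 2 highest genes if fewer than 2 passed; neutrophil, erythroid, hepatocyte and some T cell and macrophage genes are given as counts. Ebf1, Tnfrsf13c, Tnfsf13, Tnfsf13b, Siglech and the other genes marked so in the text were named after their values were seen. A gene that the rule names is not reported here. Alternatives were other pseudocounts, filters, scalings and variance models, weighted libraries, a block for replicate number, and fits that each omit a library. Promoter windows are RefSeq's, GRCm38.p6. No window of Cd79b, Ms4a1, Blk or Mzb1 was used. Windows of a chromosome were left out before the search, so an unused window need not be missing from RefSeq. Figures were drawn with matplotlib 3.10.9.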

Additional observations from a re-analysis of the deposited data

How the results depend on the processing

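Over 16 alternatives the count of the 9 genes called higher was 5 to 7 with all 6 libraries, and 4 to 6 with a library left out, and 0 were called lower in any. Among all tested genes, those called lower numbered 1534 and ranged from 935 to 1484 with a library left out (990 without control 1, 935 without control 2); those called higher ranged from 1166 to 1629 against 1669. Rescaling each library to the same summed FPKM moved the median log2 fold change over tested genes from -0.0007 to -0.105 and the split of calls to 1354 higher and 2076 lower, against 1669 and 1534; the 6 calls among the 9 genes held. That rescaling also gave 3 plasma cell genes called lower in place of 1, and a minimum of 1 FPKM gave 2 precursor genes called higher in place of 4. Hspa5 reversed with library weights (0.0403), and ranged from -0.2656 to 0.2334 with a library left out (2e-04 without control 1, 0.2334 without knockout 2). The log2 fold change of Tnfsf13 ranged from -0.0551 (without knockout 2) to 1.7686 (without knockout 3) with a library left out. The log2 fold change of Mzb1 ran from 0.18 to 1.30 and that of Xbp1 from 0.11 to 0.33, with no call in any fit. Same-numbered libraries did not deviate together (r of -0.01, -0.000123 and 0.00151). Such values cannot show whether the libraries were paired, which the sources used here do not give. With the replicate block 6 of the 9 genes were called higher, and 1575 genes higher and 1385 lower in all. The cause of these shifts was not tested. Absolute depth is unknown, and the control values of 7 of the 9 genes are at most 8 steps.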
